A study of Mus musculus with 12 samples.

Results

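The 10 epithelial genes described here were followed across 2 lines and 2 treatments of a mouse lung tumour cell line: the keratins Krt7, Krt8, Krt18 and Krt19, the adhesion genes Epcam and Cdh1, the transcription factor gene Elf3, and the tight junction genes Ocln, Cldn3 and Cldn4. They were taken by symbol from the table of 35013 genes. The list was chosen with earlier results of these data known, so the values over all genes given beside it are a description and not a test. All 10 were found, and all 10 passed the filter on low counts that left 13502 genes for testing. Epcam and Cldn4 passed it through the romidepsin-treated libraries alone, and Cldn3 not without them, so these 3 had to be higher in some of those libraries. The other 7 also passed it on the DMSO libraries.

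The cells were KP1, which the labels give as a lung adenocarcinoma line (LUAD). The first line carried an empty vector (EV) and the other overexpressed NRF2, the transcription factor encoded by Nfe2l2 that switches on antioxidant and detoxifying genes. Both lines were plated in RPMI with serum and treated for 16 h with romidepsin at 5 nM, which blocks histone deacetylases of class I, or with DMSO, its solvent. Each of the 4 groups (each line with each treatment) had 3 libraries, given as biological replicates, of 16842824 to 28003010 estimated counts. The labels do not say whether each line came from more than 1 transduction, so the p-values measure the spread between these cultures.

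Keratins are intermediate filament proteins. A type I keratin (Krt18, Krt19) pairs with a type II keratin (Krt7, Krt8) to build the filament of a simple epithelium such as that of the lung. E-cadherin (Cdh1) joins neighbouring epithelial cells at adherens junctions, and occludin (Ocln) and the claudins seal the space between them at tight junctions. Epcam is a cell surface adhesion protein of epithelia, and Elf3 is an ETS factor found in epithelial cells. Repressors such as Zeb1, Snai1 and Twist1 are known to bind E-box sequences at epithelial promoters and to silence these genes when cells become mesenchymal. Histone deacetylases are among the enzymes that such repressors recruit.

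Krt8 and Krt18 lie next to each other on chromosome 15 (GRCm38), Krt8 at chr15:101996698-102004482 on the minus strand and Krt18 at chr15:102028180-102032027 on the plus strand, 23697 bases apart. Krt7 lies on the same chromosome at chr15:101411043-101430313, and Krt19 at chr11:100140810-100148665. Cldn4 (chr5:134945119-134946934, minus strand) and Cldn3 (chr5:134986214-134987472, plus strand) are also neighbours that point away from each other, 39279 bases apart. The others are Epcam (chr17:87635979-87651129), Cdh1 (chr8:106603351-106670246), Elf3 (chr1:135253575-135258568) and Ocln (chr13:100496507-100552718).

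The start regions are shown because E-boxes are the sequences that these repressors read. Whether any repressor acted at these genes in these cells was not tested. RefSeq promoter windows (GRCm38.p6) of 250 bases before to 50 bases after a start were found for 8 of the 10 genes, in 9 windows, of which 2 overlapping ones belong to Ocln. Krt19 and Cdh1 had no entry. The E-box CACCTG, searched on both strands, stood in the 250 bases before the start in 7 of these 8 genes (7 of the 9 windows), and in 17.2% of all 32851 windows. The start is that of the RefSeq window, which for some genes lies inside the GENCODE span of the gene. The E-boxes counted for Krt7, Krt8 and Ocln lie inside these spans, so they precede an internal RefSeq start. For Ocln this is the start of the second window. The sites shown, from 6 of the 7 genes, run 5′ to 3′ on the gene's strand, 30 bases each, with the E-box in capitals (CAGGTG is the same motif on the other strand).
Krt7, 44 bases before the start, chr15:101412347-101412376, plus strand: ccgccctgtcccCACCTGtgtgcgctcagc
Krt18, 214 bases before the start, chr15:102027990-102028019, plus strand: aggggctaacacCACCTGctatcctttgtg
Epcam, 187 bases before the start, chr17:87635780-87635809, plus strand: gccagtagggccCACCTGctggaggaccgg
Epcam, 19 bases before the start, chr17:87635948-87635977, plus strand: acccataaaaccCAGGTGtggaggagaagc
Elf3, 140 bases before the start, chr1:135258595-135258624, minus strand: gaatatgcaaatCACCTGggacagggagcc
Ocln, 213 bases before the start, chr13:100552694-100552723, minus strand: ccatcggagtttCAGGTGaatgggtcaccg
Ocln, 68 bases before the start, chr13:100552549-100552578, minus strand: ctaggggctcggCAGGTGggtcccagcgca
Cldn4, 14 bases before the start, chr5:134946931-134946960, minus strand: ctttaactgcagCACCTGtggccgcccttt
None of these E-boxes overlapped a match of the other motifs searched. Over the whole window of 300 bases the E-box was present in 9 of 9 windows and in 20.2% of all windows, and in Cldn3 and the first Ocln window it stood only after the start. The site in the first Ocln window is the one 213 bases before the start of the second, so these windows share it.

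The core of the antioxidant response element, TGACNNNGC, which NRF2 binds, had no match before the start in any of the 9 windows, and one in 10.2% of all windows. The AP-1 motif TGANTCA matched in Cldn4 alone, 240 and 158 bases before its start, and in 6.75% of all windows. The GC box GGGCGG matched in 6 of the 9 windows, from 5 genes, and in 32.7% of all windows. A match is a string of letters and not a measured binding site. The 250 bases before the start of the 3 genes with the fewest counts in DMSO-treated EV cells are given below, with E-boxes in capitals. Cldn3 has none in this stretch, and Cldn4 has its E-box close to the start.
Epcam, chr17:87635729-87635978, plus strand: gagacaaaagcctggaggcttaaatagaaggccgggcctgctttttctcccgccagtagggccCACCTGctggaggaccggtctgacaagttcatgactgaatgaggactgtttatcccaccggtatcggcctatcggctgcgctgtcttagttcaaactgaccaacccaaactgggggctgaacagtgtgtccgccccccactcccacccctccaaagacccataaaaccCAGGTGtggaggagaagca
Cldn3, chr5:134985964-134986213, plus strand: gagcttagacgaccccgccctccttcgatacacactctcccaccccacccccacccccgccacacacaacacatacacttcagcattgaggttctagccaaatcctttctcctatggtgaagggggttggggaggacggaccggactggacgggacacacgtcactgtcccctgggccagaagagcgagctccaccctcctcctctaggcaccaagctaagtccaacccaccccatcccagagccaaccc
Cldn4, chr5:134946935-134947184, minus strand: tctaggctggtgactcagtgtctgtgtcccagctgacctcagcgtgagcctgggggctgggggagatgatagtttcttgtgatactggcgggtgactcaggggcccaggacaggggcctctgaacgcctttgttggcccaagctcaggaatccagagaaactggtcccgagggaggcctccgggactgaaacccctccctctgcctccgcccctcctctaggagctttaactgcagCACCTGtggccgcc

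In DMSO-treated EV cells the keratins and E-cadherin were abundant, while Epcam and the tight junction genes were close to 0. Krt18 reached 1326 ± 5.25 CPM (estimated counts relative to the scaled library total, mean ± SD, n = 3), Krt8 1260 ± 29.5, Krt7 534 ± 3.69, Cdh1 353 ± 11.5 and Krt19 292 ± 10.9 CPM. Elf3 was at 2.98 ± 0.481 CPM and Ocln at 1.21 ± 0.0655 CPM. Cldn4, Epcam and Cldn3 had 7, 2 and 1 estimated counts in the 3 libraries together. Per kilobase of the longest annotated coding transcript, the order of the 6 highest genes in every group was Krt18, Krt8, Krt19, Krt7, Cdh1 and Elf3, and in each group neighbours in this order were separated by more than their SDs. This order depends on the annotated lengths, such as the 4.094 kb of Krt7. Below these, in NRF2 cells with romidepsin, Epcam was at 3.55 ± 0.104 CPM per kb, and Cldn3 (1.73 ± 0.234), Cldn4 (1.47 ± 0.297) and Ocln (1.23 ± 0.0842) followed without a gap beyond their SDs.

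The labelled cell type was checked against its markers. Of 10 markers of alveolar type 2 cells and lung adenocarcinoma, 8 were under 1 CPM in all 4 groups, among them Nkx2-1, Napsa and Sftpc. Sftpa1 and Lamp3 had no count in any library. Abca3, a lipid transporter of alveolar type 2 cells, was at 70.9 to 73.8 CPM and Etv5 at 44.7 to 75.2 CPM in the group means. Vim, the intermediate filament of mesenchymal cells, was at 3438 ± 78.3 CPM in DMSO-treated EV cells, above any keratin. These libraries thus had simple keratins and Cdh1 together with Vim, and little Epcam, before treatment.

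Some facts of the whole series bear on these genes. Nfe2l2 was at 102 ± 1.37 CPM in EV cells and 305 ± 40.7 CPM in DMSO-treated NRF2 cells, and at 96.3 ± 2.9 and 349 ± 13.8 CPM with romidepsin. The labels do not give the form of the introduced NRF2 sequence, so introduced and endogenous Nfe2l2 cannot be told apart in these levels. Replicate 3 of the DMSO-treated NRF2 cells lay furthest from its replicates, with a root mean square log2 distance of 0.465 against 0.255 to 0.350 in the others. It also had the highest mitochondrial share, 7.30% of counts against 4.84% to 6.35%. Without it, the counts of called genes among the 10 given below were the same, except that 2 instead of 1 were called lower in NRF2 cells under romidepsin.

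**Figure D1:**
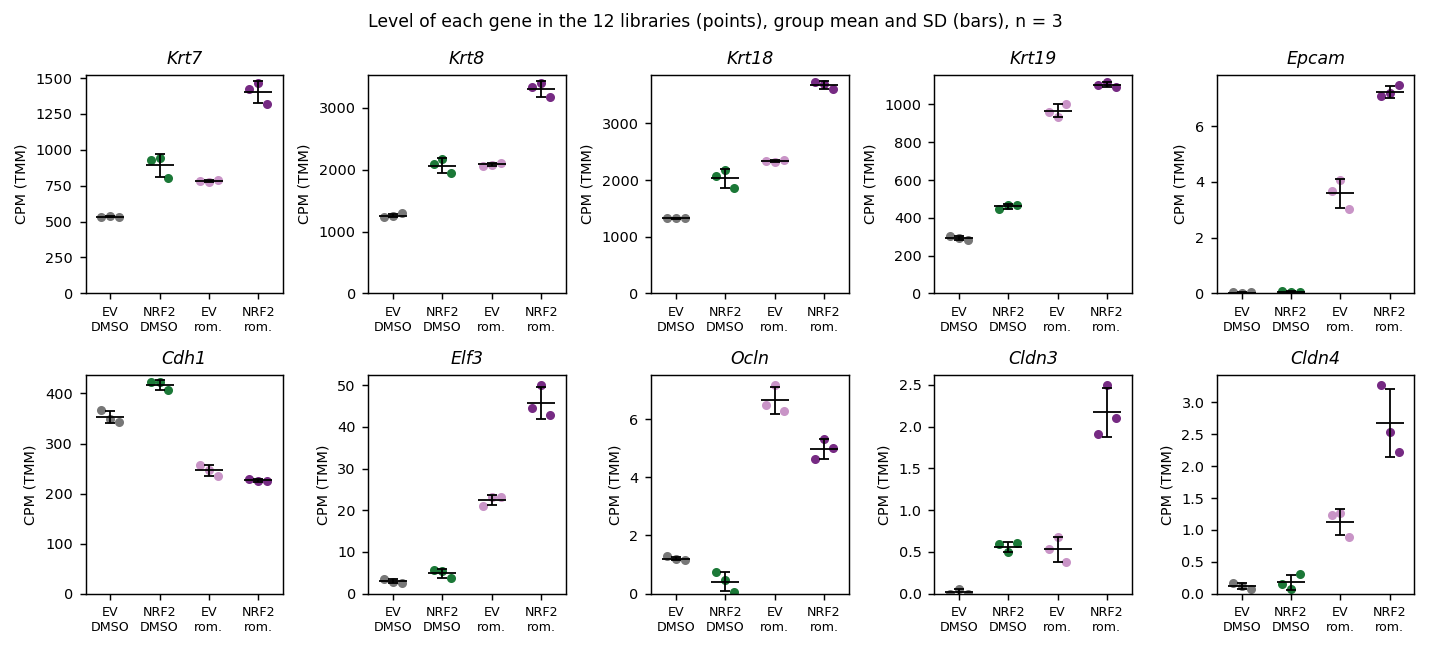
Level of each gene in CPM (y axis, linear from 0) in the 12 libraries (points) by group (x axis), with the group mean and SD (bars, n = 3). The keratins were high in DMSO-treated EV cells and rose with NRF2 and with romidepsin, Cdh1 was the only gene lower with romidepsin in both lines, and Epcam went from under 0.1 CPM to between 3.02 and 7.47 CPM.

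NRF2 overexpression came with more keratin in DMSO. Each of the 4 keratins rose by between 1.53-fold and 1.67-fold, Elf3 by 1.70-fold, Cdh1 by 1.18-fold, and Ocln fell by 2.70-fold. By edgeR's quasi-likelihood test with Benjamini-Hochberg adjustment over all genes tested, with a call at an adjusted p under 0.05, 7 of the 10 genes were called higher, 1 lower and 2 were not called. Over all genes tested, 19.3% were called higher and 16.9% lower. Among the 7 genes that also passed the filter in DMSO, 6 were higher and 1 lower, and their median log2 difference was 0.66, against -0.0066 over all genes.

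With romidepsin 9 of the 10 genes were called higher and 1, Cdh1, lower, in each line. In EV cells 39.1% of all genes tested were called higher and 37.4% lower, and in NRF2 cells 40.5% and 39.3%. The count over the 10 includes the 3 genes that had to be higher to pass the filter. The 7 genes that passed it in DMSO gave 6 higher and 1 lower in each line, with median log2 differences of 0.82 in EV cells and 0.85 in NRF2 cells, against 0.011 and 0.015 over all genes. In every one of the 10 genes the 3 treated libraries lay wholly above, or for Cdh1 wholly below, the 3 untreated ones of the same line. The share of all genes tested that separated in this way was not computed. Epcam, Cldn3 and Cldn4 passed the filter only with treated libraries, so this describes the 10 genes and sets them apart from no others.

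Between the lines under romidepsin, 8 of the 10 genes were higher in NRF2 cells, 1 was lower and 1, Ocln, was not called. Of all genes tested 23.0% were called higher and 22.4% lower. Of the 7 genes that passed the filter in DMSO, 5 were higher and 1 lower, with a median log2 difference of 0.65, against -0.0028 over all genes. The comparisons of romidepsin in NRF2 cells and of NRF2 in DMSO share the libraries of DMSO-treated NRF2 cells, as others share the EV libraries, so their values are given side by side and not as independent support.

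**Figure D2:**
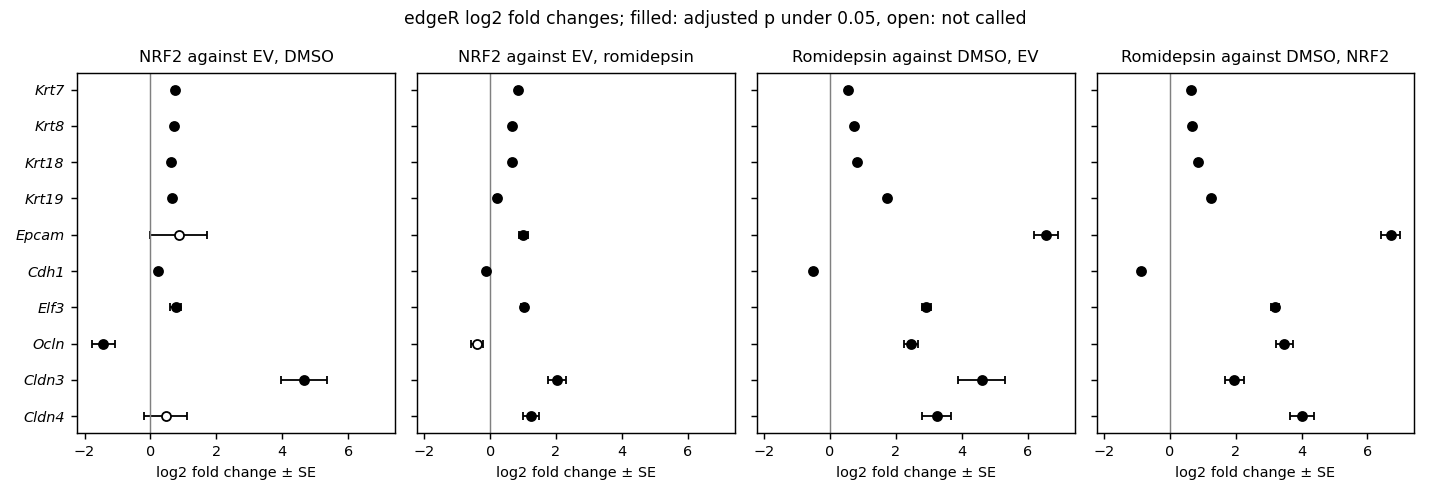
Log2 fold change of each of the 10 genes (x axis) in 4 comparisons (panels). The bars are ± SE, taken as the absolute log2 value over the square root of edgeR's F statistic. Where a group has few counts they can be narrower than counting error. Filled points have an adjusted p under 0.05 by edgeR, and open points were not called. Krt7, Krt8 and Krt18 lie between 0.55 and 0.85 in all 4 panels, whereas Epcam reaches 6.55 and 6.71 with romidepsin.

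Krt8, the most widespread type II keratin of simple epithelia, was at 1237, 1248 and 1293 CPM in the 3 EV libraries with DMSO. It was at 2089, 2172 and 1947 CPM in DMSO-treated NRF2 cells and at 2069, 2076 and 2113 CPM in EV cells with romidepsin. In NRF2 cells with romidepsin it was at 3345, 3408 and 3170 CPM. Either NRF2 or romidepsin alone brought Krt8 to overlapping levels, and the libraries with both were above all others. The log2 difference was 0.72 ± 0.05 (SE) for NRF2 in DMSO, with an edgeR adjusted p of 4.47e-09. It was 0.73 ± 0.05 for romidepsin in EV cells (3.31e-10) and 0.68 ± 0.05 in NRF2 cells (6.5e-10).

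Krt18, the type I partner of Krt8, was at 1323, 1322 and 1332 CPM in DMSO-treated EV cells and at 2064, 2179 and 1854 CPM in DMSO-treated NRF2 cells. It was at 2333, 2319 and 2355 CPM in EV cells with romidepsin and at 3731, 3692 and 3600 CPM in NRF2 cells with romidepsin. The 4 groups did not overlap. The log2 difference was 0.62 ± 0.05 for NRF2 in DMSO (edgeR adjusted p 7.52e-08), 0.82 ± 0.05 for romidepsin in EV cells (1.65e-10) and 0.85 ± 0.05 in NRF2 cells (6.38e-11). Under romidepsin NRF2 cells exceeded EV cells by 0.65 ± 0.05 (4.65e-08).

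Krt7, a type II keratin of glandular and airway epithelia, was at 530, 537 and 535 CPM in DMSO-treated EV cells and at 930, 942 and 801 CPM in DMSO-treated NRF2 cells. It was at 785, 775 and 793 CPM in EV cells with romidepsin and at 1424, 1464 and 1321 CPM in NRF2 cells with romidepsin. Unlike in Krt18 and Krt19, NRF2 cells without the drug stood above EV cells with it. The log2 difference was 0.74 ± 0.06 for NRF2 in DMSO (edgeR adjusted p 2.4e-08) and 0.55 ± 0.06 for romidepsin in EV cells (1.01e-07). In NRF2 cells the romidepsin difference was 0.65 ± 0.06 (8.5e-09).

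Krt19, a small type I keratin of ductal and simple epithelia, had the largest romidepsin response of the 4 keratins in each line. It was at 303, 291 and 281 CPM in DMSO-treated EV cells and at 447, 470 and 467 CPM in DMSO-treated NRF2 cells. With romidepsin it was at 960, 935 and 1004 CPM in EV cells and at 1103, 1116 and 1093 CPM in NRF2 cells. Romidepsin raised it 3.31-fold in EV cells (log2 1.73 ± 0.05, edgeR adjusted p 2.19e-15) and 2.39-fold in NRF2 cells (1.26 ± 0.05, 4.46e-14). NRF2 cells exceeded EV cells by 0.66 ± 0.05 on the log2 scale in DMSO (4.18e-09) and by 0.19 ± 0.04 under romidepsin (0.00206).

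Whether romidepsin acted by a different amount in the 2 lines was tested by the interaction of line and treatment. Of the 10 genes 2 were called, Krt19 and Cdh1, both with a more negative romidepsin difference in NRF2 cells than in EV cells. Over all genes 5.53% were called higher and 10.2% lower, with a median of -0.019. For Krt19 the romidepsin log2 difference was smaller in NRF2 cells by 0.47 (-0.47 ± 0.06, edgeR adjusted p 9.47e-05, and 5.97e-12 to 0.00066 over the alternatives). For Cdh1 it was -0.36 ± 0.06 (0.00072, and 2.89e-07 to 0.00413 over the alternatives). The interaction for Krt7 was 0.10 ± 0.08 (0.452), for Krt8 -0.05 ± 0.07 (0.681) and for Krt18 0.04 ± 0.07 (0.793), none of them called.

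Within a library, the keratins shifted against one another. The summed type I counts (Krt18 and Krt19) were 0.902 ± 0.019 of the summed type II counts (Krt7 and Krt8) in DMSO-treated EV cells and 0.842 ± 0.00967 in DMSO-treated NRF2 cells. With romidepsin the ratio was 1.15 ± 0.00796 in EV cells and 1.015 ± 0.029 in NRF2 cells. In each of the 4 pairwise comparisons the 3 libraries of one group lay wholly to one side of the other 3, and the exact two-sided permutation p was 0.1, the smallest that 3 libraries against 3 can give. Adjusted over the 8 ratio comparisons made this was 0.1143. Krt19 made up 18.03 ± 0.6% of the type I counts in EV cells and 18.6 ± 1.36% in DMSO-treated NRF2 cells, and 29.3 ± 0.579% and 23.1 ± 0.247% with romidepsin.

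The ratio of Krt8 to Krt18, the pair of neighbouring genes, was 0.950 ± 0.0186 in EV cells and 1.02 ± 0.0276 in DMSO-treated NRF2 cells, and 0.893 ± 0.00555 and 0.900 ± 0.0215 with romidepsin. Between the lines under romidepsin the groups overlapped (log2 difference 0.01, exact two-sided permutation p 0.8). The other 3 comparisons did not overlap and each gave the smallest possible exact p of 0.1. Krt7 made up between 27.3% and 30.1% of the type II counts in the group means. The 4 keratins together were 0.330 ± 0.00211% of all counts in DMSO-treated EV cells, 0.514 ± 0.0338% in DMSO-treated NRF2 cells, 0.649 ± 0.00903% in EV cells and 0.987 ± 0.0272% in NRF2 cells with romidepsin.

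**Figure D3:**
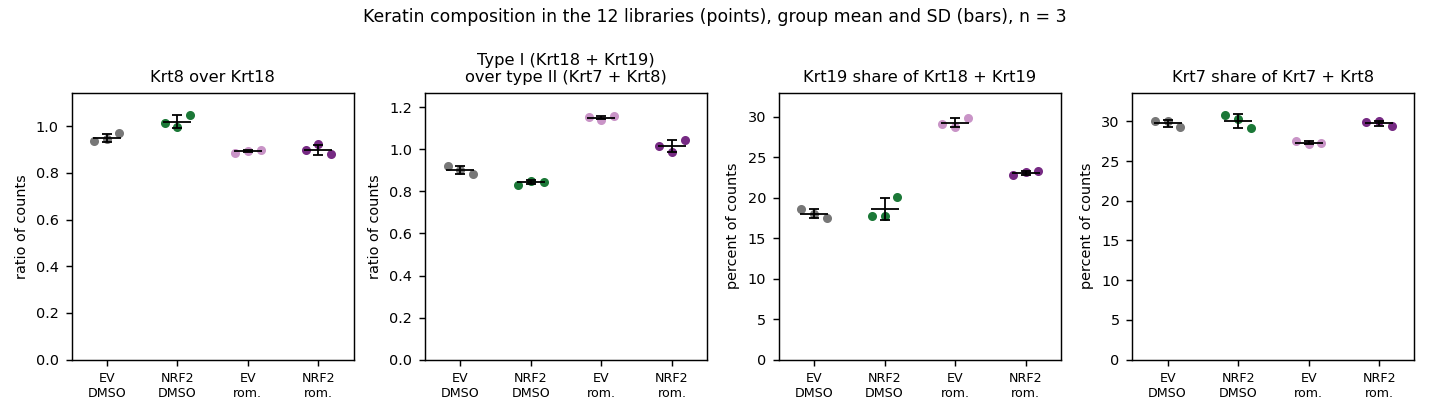
Ratios and shares of the keratin counts within each of the 12 libraries (points), with group means and SDs (bars, n = 3) and y axes from 0, as a ratio or a percentage of counts. Romidepsin libraries stand higher in the type I to type II ratio and in the Krt19 share, with EV cells above NRF2 cells, while the ratio of Krt8 to Krt18 stays between 0.88 and 1.05 in all libraries.

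Cdh1 moved against the rest under romidepsin. It was at 366, 350 and 344 CPM in DMSO-treated EV cells and at 422, 424 and 406 CPM in DMSO-treated NRF2 cells. With romidepsin it was at 256, 247 and 235 CPM in EV cells and at 230.0, 226 and 225 CPM in NRF2 cells. NRF2 cells were above EV cells in DMSO and below them under romidepsin, with no overlap in either case. Cdh1 rose with NRF2 in DMSO by 0.24 ± 0.04 (log2, edgeR adjusted p 0.000282) and fell with romidepsin 1.43-fold in EV cells (-0.52 ± 0.04, 5.73e-09) and 1.84-fold in NRF2 cells (-0.88 ± 0.04, 3.13e-12). The difference under romidepsin, -0.12 ± 0.04 (0.0333), was lost without the filter on low counts (0.0572) and without any 1 of 4 libraries: EV replicates 1 (0.162) and 2 (0.0899) and NRF2 replicates 2 (0.0912) and 3 (0.0949) of the romidepsin groups.

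Epcam was close to undetected without romidepsin. It had 1, 0 and 1 estimated counts in the EV libraries with DMSO and 2, 1 and 1 in the NRF2 libraries with DMSO. With romidepsin it had 75, 90 and 64 counts in EV cells, or 3.68, 4.06 and 3.02 CPM, and 151, 204 and 131 counts in NRF2 cells, or 7.06, 7.17 and 7.47 CPM. All treated libraries were far above all untreated ones, and under romidepsin the NRF2 libraries were above the EV libraries. The ratio of the summed counts, scaled for depth, was 110.6 in EV cells with a 95% counting interval of 30.3 to 918, and 113.9 in NRF2 cells with 44.2 to 420 (229 against 2 counts and 486 against 4). These intervals cover counting error only. edgeR gave adjusted p-values of 1.53e-11 and 3.22e-13 with log2 values of 6.55 and 6.71, which were 5.61 and 6.06 with limma-trend on the normalized values. It gave between the lines under romidepsin a log2 difference of 1.01 ± 0.14 (1.91e-05). In DMSO the lines did not differ by a called amount (0.85 ± 0.86, 0.574), and at 2 against 4 counts a difference was not detectable at this depth.

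Elf3 rose with romidepsin and, by less, with NRF2. It was at 3.52, 2.78 and 2.62 CPM in DMSO-treated EV cells and at 5.70, 5.44 and 3.70 CPM in DMSO-treated NRF2 cells. With romidepsin it was at 21.1, 23.1 and 23.3 CPM in EV cells and at 44.4, 50.1 and 42.8 CPM in NRF2 cells. The 4 groups did not overlap. The romidepsin difference was 7.60-fold in EV cells (log2 2.93 ± 0.13, edgeR adjusted p 2.13e-12) and 9.11-fold in NRF2 cells (3.19 ± 0.12, 8.98e-14), and the interaction of 0.26 ± 0.19 was not called (0.395). NRF2 cells exceeded EV cells by 0.77 ± 0.16 in DMSO (0.00109) and by 1.03 ± 0.10 under romidepsin (3.94e-07).

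Ocln, the first of the tight junction genes, was the only 1 of the 10 that was lower in DMSO-treated NRF2 cells. It was at 1.28, 1.18 and 1.16 CPM in EV cells and at 0.737, 0.457 and 0.061 CPM in DMSO-treated NRF2 cells, the last from 1 count in the replicate that stood apart. With romidepsin it was at 6.48, 7.17 and 6.28 CPM in EV cells and at 4.63, 5.31 and 5.02 CPM in NRF2 cells. The NRF2 libraries were below the EV libraries in both treatments, without overlap. In DMSO the log2 difference was -1.44 ± 0.35 (edgeR adjusted p 0.00345), and -1.04 (0.00373) without the replicate that stood apart. Under romidepsin it was -0.41 ± 0.18 (0.0674). That value was called with limma-voom (0.0474), with the 2 groups alone (0.00293) and without NRF2 replicate 1 (0.0353) or 3 (0.00604) with DMSO, libraries that enter it only through the shared estimate of spread. Romidepsin raised Ocln 5.50-fold in EV cells (2.46 ± 0.22, 1.4e-08) and 11.2-fold in NRF2 cells (3.48 ± 0.27, 1.66e-09). The interaction of 1.02 ± 0.39 was not called (0.0886), and was called with DESeq2 (0.0498) and without NRF2 replicate 1 with DMSO (1.56, 0.018). Without NRF2 replicate 3 with DMSO, the library that stood apart, it was 0.61 (0.173).

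Cldn3 and Cldn4, claudins of epithelial tight junctions, had few counts. Cldn3 had 0, 1 and 0 estimated counts in DMSO-treated EV cells, 12, 13 and 10 in DMSO-treated NRF2 cells, 11, 15 and 8 in EV cells with romidepsin and 41, 71 and 37 in NRF2 cells with romidepsin. NRF2 and romidepsin each alone gave overlapping levels, 0.495 to 0.606 CPM and 0.378 to 0.676 CPM, and both together gave 1.92, 2.50 and 2.11 CPM. The depth-scaled ratio for NRF2 in DMSO was 34.1 with a 95% counting interval of 5.74 to 1386, from 35 counts against 1, and 32.8 (5.51 to 1334) for romidepsin in EV cells. The edgeR adjusted p-values were 4.9e-05 and 1.2e-05. Their sizes hang on that 1 count: the fitted log2 values of 4.67 and 4.60 became 6.61 and 6.55 without EV replicate 2 with DMSO, which holds it, and 4.05 and 3.98 without EV replicate 3 with DMSO. They were 4.02 and 3.92 with limma-voom, and 3.27 and 3.19 with limma-trend on log2 of the normalized values plus 1.

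With more counts behind them, the other 2 differences in Cldn3 were 1.96 ± 0.28 on the log2 scale for romidepsin in NRF2 cells (edgeR adjusted p 5.02e-06) and 2.03 ± 0.28 between the lines under romidepsin (1.91e-05). The interaction of -2.64 ± 0.88 was not called (0.0505). Its size also hangs on that 1 count, and ranged from -4.59 without EV replicate 2 with DMSO to -1.30 over the alternatives. It was called with a filter at 1 CPM (0.0478), with limma-voom (0.0427), without EV replicate 2 with DMSO (0.0274) and without EV replicate 3 with romidepsin (0.0408).

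For Cldn4, the neighbour of Cldn3, the difference between the lines in DMSO was not called (0.47 ± 0.65, edgeR adjusted p 0.638, from 10 counts against 7). It was at 0.160, 0.118 and 0.077 CPM in EV cells and at 0.147, 0.076 and 0.303 CPM in DMSO-treated NRF2 cells, which overlap. With romidepsin it was at 1.23, 1.26 and 0.897 CPM in EV cells and at 3.27, 2.53 and 2.22 CPM in NRF2 cells, all above the untreated libraries and with NRF2 above EV. The log2 difference was 3.24 ± 0.44 in EV cells (2.76e-06), 4.02 ± 0.36 in NRF2 cells (9.35e-09) and 1.24 ± 0.25 between the lines under romidepsin (0.000591). Whether the 2 claudins differ from each other in their response to NRF2 was not tested.

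Over the 12 libraries the members fell near each other to different degrees, measured as the root mean square difference of log2 CPM after each gene was centred on its own mean. Krt8 and Krt18 were 0.0801 apart, Krt7 and Krt8 0.0834, and Elf3 and Cldn4 0.447. Among all tested genes of mean level 5 CPM or more, Abhd4 was the nearest to Krt7 (0.072) and to Krt8 (0.0784), and Lgals3, the gene of galectin 3, to Krt18 (0.0534). Snai3 was the nearest to Krt19 (0.0725). Epcam lay nearest to Abhd3 (0.277), Elf3 to Ndrg1 (0.161) and Cldn3 to Speg (0.324). The points of these distances share the same 12 libraries, and the distances are descriptions.

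The other genes of these pathways are given by list, beside the shares over all genes tested: 19.3% higher and 16.9% lower with NRF2 in DMSO, 39.1% and 37.4% with romidepsin in EV cells, and 40.5% and 39.3% in NRF2 cells. Some listed genes passed the filter on low counts only with the romidepsin libraries and so had to be higher there. Counts and medians are therefore also given over the genes that passed it on the DMSO libraries.

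The simple keratins, a list that includes Krt7, Krt8, Krt18 and Krt19, gave a mixed picture. Of the 7 simple epithelial keratins all 7 were called higher with NRF2, both in DMSO and under romidepsin, and with romidepsin 5 were higher and 2 lower in each line. The 2 that fell were Krt23 and Krt80. Krt23 was at 4.43 ± 0.464 CPM in EV cells and 18.3 ± 2.07 CPM in DMSO-treated NRF2 cells, and at 2.49 ± 0.42 and 10.05 ± 1.06 CPM with romidepsin. Krt20, a keratin of gut and urinary epithelia, rose with romidepsin 2.71-fold in EV cells and 2.67-fold in NRF2 cells (adjusted p 1.02e-13 and 6.34e-14 by edgeR).

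Of 11 keratins of stratified and basal epithelia 6 could be tested. In EV cells and in NRF2 cells 5 of these 6 rose with romidepsin and none fell, and with NRF2 in DMSO 3 rose and none fell. Of the 4 that passed the filter in DMSO, 3 rose with romidepsin in each line and 2 rose with NRF2 in DMSO. These 2, Krt5 and Krt14, passed it in DMSO through the NRF2 libraries alone. They therefore had to be higher in some of those libraries than in EV cells. Krt14, a keratin of basal cells, was at 0.296 ± 0.0252 CPM in DMSO-treated EV cells, 1.35 ± 0.338 in DMSO-treated NRF2 cells, and 10.2 ± 0.419 and 16.5 ± 2.27 CPM with romidepsin. Its partner Krt5 had no count in DMSO-treated EV cells, 60 counts in DMSO-treated NRF2 cells, at least 19.5-fold higher, and 20 counts in EV cells with romidepsin, at least 6.44-fold higher, taking 3 counts over the group as the floor. Summed over the 11 genes these keratins reached 4.71 ± 0.561 CPM in DMSO-treated EV cells and 34.6 ± 3.89 CPM in NRF2 cells with romidepsin, against 3518 ± 28.2 and 9719 ± 266 CPM for the 7 simple keratins.

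Of 18 tested genes of the tight junction, 7 rose and 3 fell with NRF2 in DMSO, 12 rose and 4 fell with romidepsin in EV cells, and 13 rose and 5 fell in NRF2 cells. Of the 11 that passed the filter in DMSO, 4 rose and 2 fell with NRF2 in DMSO, 6 rose and 4 fell with romidepsin in EV cells and 6 rose and 5 fell in NRF2 cells, with median log2 differences of 0.07, 0.37 and 0.24. With the 2 groups alone, Cldn3, Cldn23 and Tjp3 did not pass the filter and were not tested, and 4 instead of 7 were called higher with NRF2 in DMSO. Cldn23 went from 0.0435 ± 0.0395 to 3.83 ± 0.736 CPM with romidepsin in EV cells, and in NRF2 cells 0.435 ± 0.221 became 8.64 ± 0.619 CPM. Tjp3, a scaffold that ties claudins to actin, went from 0.0781 ± 0.0676 to 3.63 ± 0.432 CPM in the first line and, in the second, from 0.349 ± 0.309 to 6.35 ± 0.448 CPM. Cldn2, a claudin that forms cation pores in leaky epithelia, went the other way, 17.4-fold lower in EV cells (edgeR adjusted p 3.94e-09) and 34.9-fold lower in NRF2 cells (3.76e-12).

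Of 12 adherens junction genes 6 rose and 3 fell with romidepsin in EV cells, and 7 rose and 3 fell in NRF2 cells. Of the 11 that passed the filter in DMSO, 5 rose and 3 fell in EV cells and 6 rose and 3 fell in NRF2 cells, with medians of 0.14 and 0.18, so the shares that rose or fell were not far from those over all genes. Cdh2, the N-cadherin of mesenchymal and neural cells, fell as Cdh1 did, from 99.3 ± 0.363 to 41.3 ± 0.505 CPM in EV cells. In NRF2 cells it went from 77.8 ± 8.1 to 29.3 ± 0.659 CPM. Nectin2, an adhesion protein of the same junction, rose 2.12-fold and 1.69-fold, and Jup, the plakoglobin that links cadherins to the cytoskeleton, rose 1.67-fold in EV cells. With NRF2 in DMSO 5 of the 12 rose, among them Ctnna1, the alpha-catenin gene, and 2 fell.

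The desmosome genes moved in 1 direction with romidepsin: 7 of 8 tested rose in EV cells and 8 of 8 in NRF2 cells. All 7 that passed the filter in DMSO rose in each line, with medians of 1.37 and 1.53. Dsp, the desmoplakin that anchors keratin filaments to the desmosome, rose 4.21-fold in EV cells and 4.76-fold in NRF2 cells (adjusted p 9.56e-07 and 1.48e-07 by edgeR). Its relatives Evpl and Ppl rose 2.84-fold and 2.74-fold in EV cells. With NRF2 in DMSO 2 rose and 1 fell: Perp rose 2.16-fold and Evpl 1.58-fold, and Pkp1 fell 2.97-fold. Without the replicate that stood apart, 2 fell.

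Of 10 tested genes of the apical surface and of epithelial adhesion, 4 rose and 3 fell with romidepsin in EV cells and 5 rose and 4 fell in NRF2 cells, shares near those over all genes. Of the 8 that passed the filter in DMSO, 3 rose and 3 fell in EV cells and 3 rose and 4 fell in NRF2 cells, with medians of 0.06 and 0.03. Beside Epcam, the polarity gene Crb3 rose 4.08-fold and 10.2-fold and the protease inhibitor gene Spint1 3.40-fold and 7.31-fold. Lad1 fell 3.74-fold and 4.23-fold. With NRF2 in DMSO 1 of the 10, Muc1, rose and 2 fell, and without the replicate that stood apart 2 rose.

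Among 13 tested transcription factors of epithelia, 5 rose and 6 fell with romidepsin in each line, shares near those over all genes. Of the 11 that passed the filter in DMSO, 3 rose and 6 fell in each line, with medians of -0.51 in EV cells and -0.76 in NRF2 cells. Grhl2, an activator of junction genes, went from 0.371 ± 0.206 to 1.61 ± 0.468 CPM in EV cells. In NRF2 cells it went from 0.268 ± 0.0618 to 2.42 ± 0.14 CPM. Klf4 went from 6.39 ± 1.248 to 25.04 ± 2.38 CPM in EV cells. Hnf4a, a factor of liver and gut epithelium, fell 8.11-fold in EV cells and 10.03-fold in NRF2 cells, and Foxa1 fell 3.59-fold in NRF2 cells. With NRF2 in DMSO 7 rose and 2 fell, with Hnf4a going from 44.7 ± 1.79 to 111 ± 4.77 CPM.

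The repressors of epithelial genes did not move as 1 group. Of the 9, 6 fell and 2 rose with romidepsin in EV cells, and 7 fell and 2 rose in NRF2 cells, with medians of -0.69 and -0.70. All 9 passed the filter in DMSO. Zeb2 fell 3.01-fold in EV cells (edgeR adjusted p 7.38e-10), from 38.1 ± 2.89 to 12.6 ± 1.63 CPM, and 2.84-fold in NRF2 cells (2.47e-09). Prrx1 fell 3.08-fold and 3.32-fold, and Tcf4 2.16-fold and 2.07-fold. The 2 that rose were Snai1, 4.07-fold and 4.58-fold, and Snai3, 3.52-fold and 2.56-fold. Zeb1 fell 1.27-fold and 1.48-fold, and Twist2 1.62-fold and 2.14-fold.

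With NRF2 in DMSO 3 of the 9 repressors rose and 3 fell. Twist1, a repressor of E-cadherin, was at 18.2 ± 0.348 CPM in EV cells and 2.58 ± 0.292 CPM in DMSO-treated NRF2 cells, 7.13-fold lower (edgeR adjusted p 6.16e-11). Under romidepsin it was at 8.13 ± 0.706 and 1.62 ± 0.493 CPM, 5.18-fold lower. Zeb2 was 1.53-fold and Prrx1 1.67-fold lower with NRF2 in DMSO. Zeb1 was 1.37-fold higher (8.34e-05), Snai3 1.56-fold higher and Twist2 1.253-fold higher (0.0436).

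**Figure D4:**
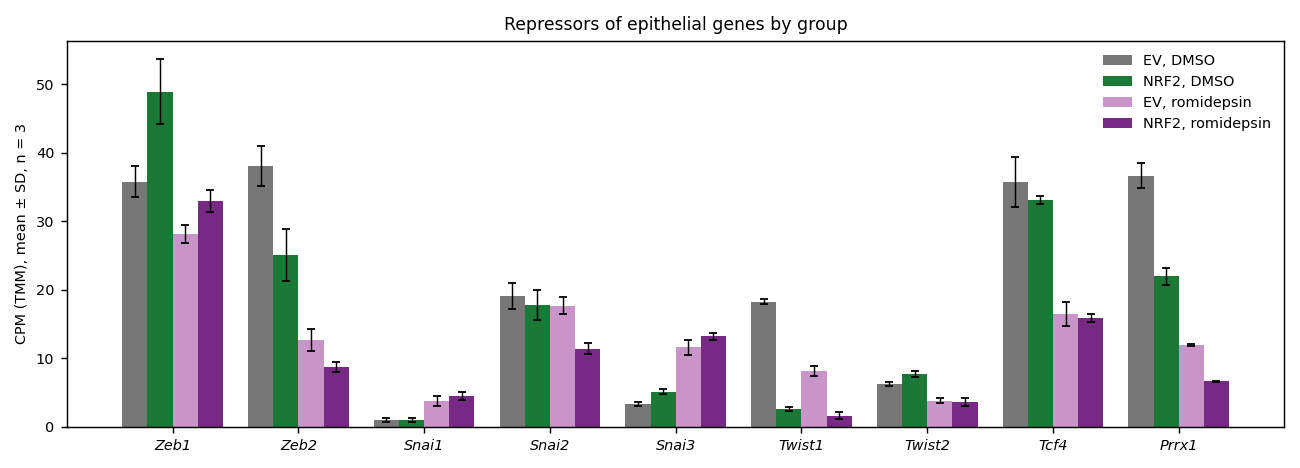
Mean level in CPM (y axis, linear from 0) of the 9 repressors of epithelial genes in the 4 groups (bars, ± SD, n = 3). Zeb2, Prrx1, Tcf4 and Twist1 were lower with romidepsin in both lines, Snai1 and Snai3 were higher, and Twist1 was lower in NRF2 cells in both treatments.

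The mesenchymal markers were mixed too. Of 6 tested, 2 rose and 3 fell with romidepsin in EV cells and 2 rose and 4 fell in NRF2 cells. Vim rose from 3438 ± 78.3 to 6107 ± 38.7 CPM in EV cells. In NRF2 cells it went from 3079 ± 173 to 5348 ± 179 CPM. With NRF2 in DMSO 1 of the 6, Sparc, rose and 5 fell.

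Markers of other cell types moved with romidepsin as well. The summed level of 7 leukocyte markers was 3.62 ± 0.694 CPM in DMSO-treated EV cells (range 2.88 to 4.26) and 52.6 ± 2.91 CPM with romidepsin (50.05 to 55.7), and in NRF2 cells 4.59 ± 0.309 and 73.0 ± 2.15 CPM. Most of it was Cd68, at 3.27 ± 0.636 and 49.6 ± 2.36 CPM in EV cells. The defining gene Ptprc was under 1 CPM in all groups, as were Cd3e, Csf1r and Adgre1. All 4 tested markers, Cd68, Lyz2, Csf1r and Ptprc, were called higher with romidepsin in each line, against 39.1% and 40.5% of all genes. Ptprc rose 2.20-fold in EV cells (edgeR adjusted p 0.0403) and 3.52-fold in NRF2 cells (0.0205). Only 1 of the 4, Cd68, passed the filter in DMSO. The 8 fibroblast markers summed to 4.07 ± 0.549 and 12.9 ± 0.368 CPM in EV cells and to 5.05 ± 1.97 and 17.2 ± 1.62 CPM in NRF2 cells, with 5 of the 8 under 1 CPM in all groups. The 5 endothelial markers summed to between 4.54 and 8.50 CPM in the group means. Their part in the results on the keratins and junction genes was not tested. In bulk libraries, more cells with a transcript and more transcript per cell cannot be told apart.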

How the data were processed

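RNA of KP1 mouse cells was enriched for poly-A transcripts and sequenced in 12 libraries, 3 in each of 4 groups. The submitters' processing notes name bcl2fastq 2.19, kallisto 0.44.0, DESeq2 and the build GRCm38. The authors deposited estimated counts per gene, already rounded to whole numbers, and a normalized signal, which is the estimated count divided by 1 factor per library. kallisto shares reads between transcripts of like sequence, so values of related genes are estimates. All deposited sample columns were used. Library totals were 16842824 to 28003010, and 12331 of 35013 genes had no count.

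edgeR 4.0.16 (R 4.3.3) was fitted to all 12 libraries with TMM factors, its default filter on low counts, a mean for each of the 4 groups, which leaves 8 residual degrees of freedom. Tests were two-sided quasi-likelihood tests with Benjamini-Hochberg adjustment over 13502 genes and a threshold of 0.05. The SE given with a log2 difference is its absolute value divided by the square root of the test's F statistic. Where a group has few counts, as for Epcam and Cldn3 in DMSO-treated EV cells, this SE can be smaller than counting error. Levels are CPM, counts scaled with TMM factors. Alternatives were limma 3.58.1 (voom on counts, and trend on log2 of the deposited normalized signal with a pseudocount of 1), DESeq2 1.42.0, other scalings and filters, the 2 groups alone, a replicate block and leaving out each library. The fit was tested on simulated data. Sequence windows came from RefSeq and positions from GENCODE. The genes and gene lists were chosen with earlier results of these data known. All 10 genes are described, and from each list up to 4 genes per comparison could be named, those called with the largest difference and a mean of at least 1 CPM, and all repressors. Replicate numbers were not used to pair the samples. A few items are not reported here.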

Additional observations from a re-analysis of the deposited data

Results flagged for a closer look

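The romidepsin response differed between the lines, by the interaction test over all genes, for 2 of the 10 genes. For Krt19 the romidepsin log2 difference was lower in NRF2 cells than in EV cells (NRF2 minus EV, -0.4693), with the gene higher after treatment in 3 of 3 libraries of each line. For Cdh1 it was also lower in NRF2 cells (-0.3607), with the gene lower after treatment in 3 of 3 libraries of each line. Groups of 3 libraries were not tested for single outlying samples.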

How the results depend on the processing

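For the 10 genes in 5 comparisons, 1086 values were recomputed under 22 alternatives, and 1066 kept their direction and their side of the threshold, 5 lost the call, 10 gained one and 5 changed sign. The number called lower in NRF2 cells under romidepsin was 0 without a filter and 2 with limma-voom or with the 2 groups alone, and 0 to 2 when each library was left out. The number with a higher interaction was 1 with DESeq2 and 0 to 1 when each library was left out. Over all genes, leaving out a library gave 465 to 921 higher interactions (747 with all libraries; the lowest without EV replicate 2 with romidepsin) and 959 to 2127 lower ones (1380 with all; the highest without NRF2 replicate 3 with DMSO). Signs changed in values that were not called: leaving out libraries gave -0.077 to 0.908 for Cldn4 with NRF2 in DMSO, -0.0436 to 0.0735 for the Krt18 interaction, -0.24 to 0.56 for the Epcam interaction and -0.00725 to 0.0268 for the log2 ratio of Krt8 to Krt18 between the lines under romidepsin. The log2 ratio of type I to type II keratins with romidepsin in EV cells was 0.31 on counts per transcript length and 0.35 on counts. The cause was not tested.

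Other scalings moved the median of all genes by up to 0.14 (log2) in the romidepsin comparisons, and no called gene of the 10 changed direction. Same-numbered libraries did not deviate together (correlations of -0.123 to 0.0625), and the fit used no pairing. With 3 libraries in each group, these correlations cannot show whether same-numbered cultures were handled together. A replicate block gave 7 higher and 1 lower of the 10 with NRF2 in DMSO, as without it, and 2507 higher genes in all instead of 2608. With 7, 2 and 1 counts in EV cells with DMSO, the sizes of the Cldn4, Epcam and Cldn3 changes are limited by depth. With the 2 groups alone, Epcam, Cldn3 and Cldn4 did not pass the filter for NRF2 in DMSO. Nor did Cldn3 for romidepsin in EV cells, and these values are not counted.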
